A study of Mus musculus with 6 samples.

Results

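The hypoxia and glycolysis response genes Vegfa, Adm, Slc2a1, Pdk1, Ldha, Pgk1, Bnip3, Egln3, Hk2 and Pfkfb3 were followed in the brains of mice with and without an activated human SRY transgene. The members were all probes listed under these 10 gene symbols. They came to 12 probes of 9 symbols, out of 25697 probes of 18138 symbols in the whole table, and Hk2 was not analysed here. On the Illumina MouseRef-8 v2.0 array, beads coated with a short oligonucleotide, the probe, capture 1 transcript, and their brightness reads its amount. Of the 12 probes, 9 probes of 8 symbols were above background on at least 3 of the 6 arrays (detection p-value under 0.05) and were tested. Of these, 7 were detected on all 6 arrays. The other 3 probes, for Bnip3 and for 1 of the probes of Vegfa and of Egln3, were detected on no array and were not tested. The neuron markers Snap25 and Nefl were also detected on no array, so lack of detection does not show that a transcript is absent.

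Total RNA came from whole brain of male FVB mice (FVB/N background) at postnatal day 6, with 3 mice per group and 1 array per mouse. All 6 mice carried Signalox-hSRY, a single-copy transgene at the H11 locus on chromosome 11 that holds FLAG-tagged human SRY and EGFP behind a DsRed2 cassette between loxP sites. In hSRY-OFF mice the cassette was still in place and hSRY was not activated. In hSRY-ON mice it had been removed in the single-cell embryo by Cre recombinase deposited in the oocytes of Ddx4-Cre mothers, and the hSRY-ON mice chosen for the arrays did not themselves carry Ddx4-Cre. SRY is the testis-determining transcription factor of the Y chromosome. The CAG promoter that then drives the transgene is active throughout the body, so the brain was not the only organ with hSRY, and all mice descended from 1 transgenic line. The mothers of the hSRY-OFF mice are not given in the sources used here, so an effect of a Ddx4-Cre mother cannot be told apart from one of the recombined transgene. The probes are for mouse transcripts, so the labels were not checked against human SRY itself.

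The response to low oxygen rests on the hypoxia-inducible factors (HIF), which pair an oxygen-labile alpha subunit with Arnt. When oxygen is present, prolyl hydroxylases of the Egln family mark the alpha subunit, and the Vhl protein directs its destruction. When oxygen falls, the alpha subunit persists, and the dimer binds hypoxia response elements and activates genes that bring in blood vessels, take up glucose and turn it to lactate. Several of the same genes also answer to growth factors, nutrient supply and hormones, and in the developing brain Vegfa guides the growth of vessels into nervous tissue.

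The core of a hypoxia response element is the sequence ACGTG or GCGTG. Both strands of the 250 bases before each annotated start of the member genes were searched for it in RefSeq promoter sequences of assembly GRCm38.p6, and all 10 symbols matched an entry, Hk2 included. Of the 14 windows of these genes, 12 held at least 1 match, against 12679 of all 32851 windows in the table (38.6%). The core in CACGTG reads the same on both strands and was counted once on each. The windows of the 3 genes whose arrays separated by group and of Ldha, whose arrays did not, are printed here 5′ to 3′ on the strand of the gene, with matched letters in capitals. That of Vegfa is chr17:46032378-46032627 on the minus strand, that of Slc2a1 chr4:119108495-119108744, that of Pdk1 chr2:71872974-71873223 and that of Ldha chr7:46845554-46845803, all 3 on the plus strand.
Vegfa: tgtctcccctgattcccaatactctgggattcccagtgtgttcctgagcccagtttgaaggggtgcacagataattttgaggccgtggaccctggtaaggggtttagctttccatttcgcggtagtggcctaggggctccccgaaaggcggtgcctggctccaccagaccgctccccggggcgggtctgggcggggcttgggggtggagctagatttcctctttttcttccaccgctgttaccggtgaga
Slc2a1: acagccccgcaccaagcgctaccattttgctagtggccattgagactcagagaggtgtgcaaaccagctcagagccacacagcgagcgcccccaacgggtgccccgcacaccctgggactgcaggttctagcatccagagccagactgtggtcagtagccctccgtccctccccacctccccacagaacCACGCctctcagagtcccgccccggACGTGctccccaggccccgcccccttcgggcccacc
Pdk1: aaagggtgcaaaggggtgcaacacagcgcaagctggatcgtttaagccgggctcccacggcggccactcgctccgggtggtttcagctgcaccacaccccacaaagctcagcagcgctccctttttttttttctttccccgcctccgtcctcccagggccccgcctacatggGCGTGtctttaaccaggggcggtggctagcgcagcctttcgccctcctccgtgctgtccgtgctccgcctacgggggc
Ldha: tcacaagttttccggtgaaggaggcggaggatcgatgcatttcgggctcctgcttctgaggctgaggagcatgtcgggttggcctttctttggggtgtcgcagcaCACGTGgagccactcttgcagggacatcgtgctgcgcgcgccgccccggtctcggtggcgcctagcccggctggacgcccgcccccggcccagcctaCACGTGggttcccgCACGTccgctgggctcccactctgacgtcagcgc

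Counted to their first base, the matches lay 61 and 36 bases upstream in Slc2a1 and 78 bases upstream in Pdk1. The printed window of Ldha had 5 matches at 3 places, first bases 145, 48 and 34 upstream. The window of Bnip3, not printed, also had 5, and only 1.01% of all windows held 5 or more. The Vegfa window printed here had 0 matches, and the window of its second annotated start had 2. That second window, chr17:46025164-46025413, lies downstream of the first start on the minus strand, and whether it acts as a promoter was not tested. The second windows of Pdk1 and Ldha, not printed, had 0 and 1. A match is a string of letters and not a bound site.

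All values below are on the log2 scale of background-corrected, quantile-normalized intensity, where 1 unit is a doubling, and differences are hSRY-ON minus hSRY-OFF. A probe was called at an adjusted p under 0.05 (limma, two-sided, Benjamini-Hochberg over 14215 tested probes). In all, 308 of the tested probes (2.17%) were called, 120 of them higher in hSRY-ON (0.844%). The median difference over all tested probes was 0.005, with quartiles of -0.14 and 0.14, and 51.1% were above 0. The arrays had similar median intensities (200 to 220) and numbers of detected probes (13816 to 14377). On the second principal component of the tested probes, with 18.5% of the variance, hSRY-ON array 3 stood at -22.2 and the other 5 arrays between 0.05 and 8.92. Values without that array are given below for each member tested in it. On the first component, with 42.8%, the hSRY-OFF arrays lay between 14.7 and 16.6 and hSRY-ON arrays 1, 2 and 3 at -22.2, -14.1 and -9.75. Leaving out single arrays took the calls over all probes from 308 to between 0 and 417.

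None of the 9 tested member probes was called, but both detected probes of Vegfa and the probes of Slc2a1 and Pdk1 read higher, after normalization, on every hSRY-ON array than on any hSRY-OFF array. These were 4 of 9 probes, where 13.5% of all tested probes were separated in this direction and 27.7% in either. The same 4 had an unadjusted p under 0.05 with a higher mean in hSRY-ON, as did 10.1% of all tested probes. Of the 9 probes, 8 had a positive difference and 1 a negative one, and their median was 0.36. The lowest adjusted p among them was 0.0566. Without hSRY-ON array 3, where Adm fell below the filter, 1 of the 8 others (Vegfa ILMN_3121255) was called, against 417 of 13986 probes in all (2.98%), and the median was 0.27. The median of the 9 is the value of the dim Adm probe, and it was 0.10 with no background correction. In the plot of values by array, the 4 separated probes and the 5 others can be compared directly.

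**Figure D1:**
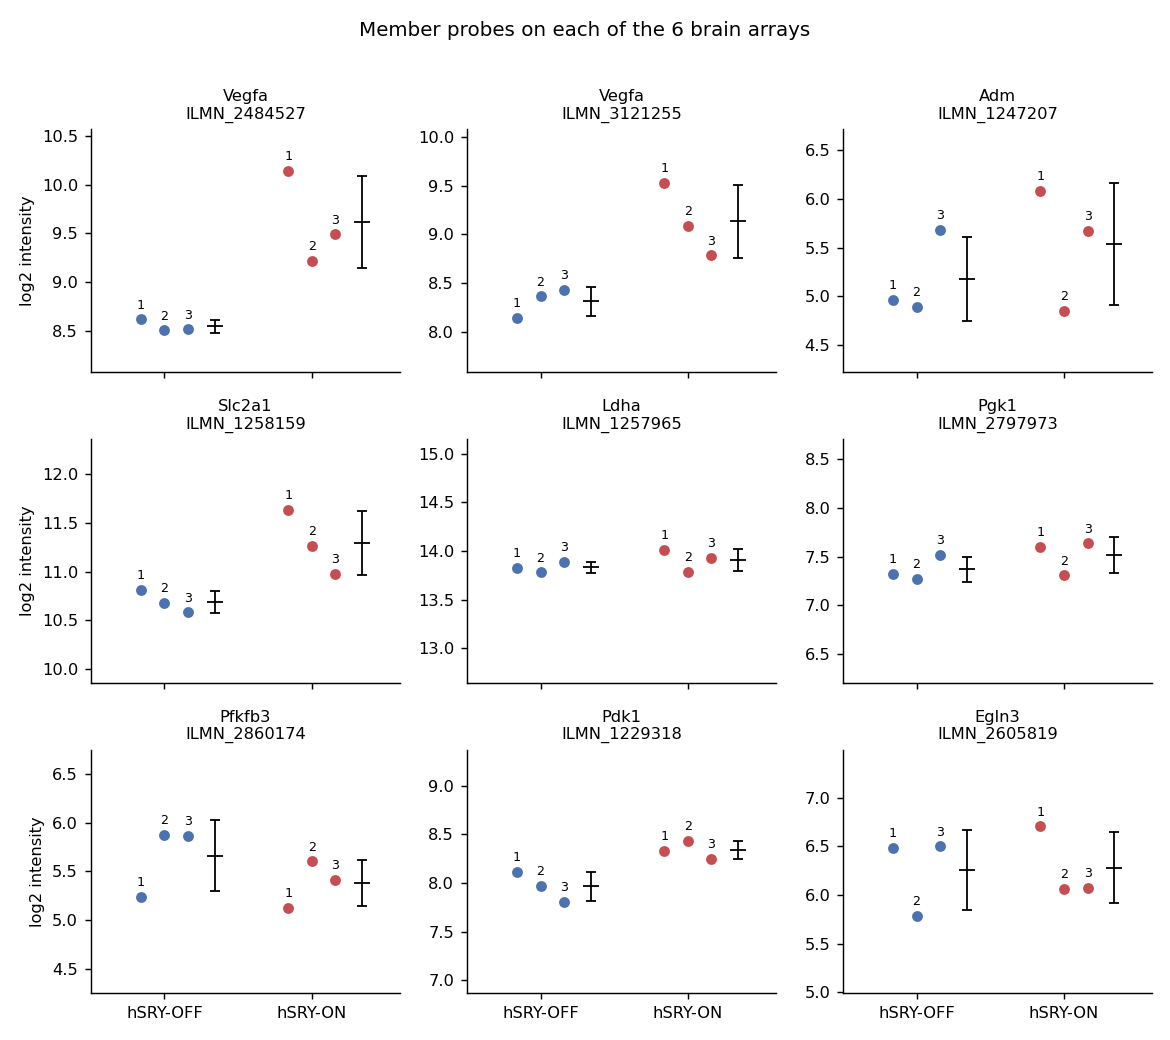
Log2 intensity (vertical axis, the same span in every panel) of the 9 tested member probes on each hSRY-OFF (blue) and hSRY-ON (red) array. Each point is 1 array with its replicate number, and the bars beside them give mean and SD (n = 3). The hSRY-ON points of both Vegfa probes, Slc2a1 and Pdk1 lie above all hSRY-OFF points, and the groups overlap for the other 5 probes.

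Vegfa, the secreted growth factor that drives the sprouting of blood vessels, had the greatest difference of the members. Its probe ILMN_2484527 read 8.61, 8.50 and 8.51 in hSRY-OFF and 10.14, 9.22 and 9.49 in hSRY-ON, with arrays 1 to 3 in that order here and throughout. The hSRY-OFF arrays lay close together, whereas the hSRY-ON arrays were all higher and spread more widely, with array 1 highest. The means were 8.54 ± 0.06 and 9.62 ± 0.48 (SD, n = 3), a difference of 1.07 (SE 0.22, 95% interval 0.55 to 1.59), or 2.10-fold. The adjusted p in limma was 0.0566, above the threshold. Only 0.148% of all tested probes had a greater positive difference. Before any correction, the bead intensities were 603, 507 and 500 in hSRY-OFF and 1305, 715 and 834 in hSRY-ON, so this probe separated the groups in the deposited values as well.

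A second Vegfa probe, ILMN_3121255, read 8.14, 8.36 and 8.43 in hSRY-OFF and 9.53, 9.09 and 8.79 in hSRY-ON. Again every hSRY-ON array was above every hSRY-OFF array and array 1 was the highest. The means were 8.31 ± 0.15 and 9.14 ± 0.37 (SD, n = 3), with a difference of 0.82 (SE 0.19, 95% interval 0.38 to 1.27), or 1.77-fold, and an adjusted p of 0.0717 in limma. The difference of this probe minus that of ILMN_2484527 was -0.25 (SE 0.19, 95% interval -0.68 to 0.18, adjusted p 0.803 in a limma fit over 4889 such probe pairs, of which 0.0205% were called). The interval therefore allows the probes to read the same change or to differ by up to 0.68. The probes measured the same 6 RNA samples and are not separate evidence. The third Vegfa probe, ILMN_3045723, was detected on no array.

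Whether Vegfa was called depended on the processing. Both probes were called with no background correction, another normexp setting (fitted on the signals, offset 50), a stricter detection filter (detection p-value under 0.01 on all 6 arrays, adjusted p 0.0266 and 0.0366), array quality weights and either trended prior. With no background correction, the differences were 0.84 and 0.61 and the adjusted p 0.00155 and 0.00358. With a prior variance that follows the intensity (trend), a choice added after the data were seen, the adjusted p were 0.000152 and 0.000915. Over all alternatives they ran from 0.000152 to 0.152 for ILMN_2484527 and from 0.000915 to 0.170 for ILMN_3121255, with every difference positive. Without hSRY-ON array 1, the highest one, the differences were 0.81 and 0.63. Without hSRY-ON array 3 they were 1.14 and 1.0, with adjusted p of 0.0757 and 0.0380, so that ILMN_3121255 was called.

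Adm encodes adrenomedullin, a peptide that widens vessels. Its probe was dim, and it was above background on 1 hSRY-OFF and 2 hSRY-ON arrays. It read 4.97, 4.89 and 5.68 in hSRY-OFF and 6.09, 4.85 and 5.68 in hSRY-ON, so the groups overlapped, with the lowest value of all on hSRY-ON array 2. The difference was 0.36 (SE 0.34, 95% interval -0.44 to 1.16, adjusted p 0.590), and the upper limit of the interval corresponds to 2.23-fold. The difference was 0.10 with no background correction. Leaving out 1 array gave 0.70 without hSRY-ON array 2 and 0.22 and 0.25 without hSRY-OFF arrays 2 and 1, and the probe fell below the filter in the other 3 such fits.

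Slc2a1, the glucose transporter of the blood-brain barrier and of glia, read 10.81, 10.68 and 10.58 in hSRY-OFF and 11.64, 11.26 and 10.98 in hSRY-ON. After normalization the hSRY-ON arrays were all higher, array 1 the most and array 3 the least. In the deposited intensities the groups overlapped, with 2193, 1765 and 1616 in hSRY-OFF and 3436, 2476 and 2095 in hSRY-ON. The means were 10.69 ± 0.11 and 11.29 ± 0.33 (SD, n = 3). The difference was 0.60 (SE 0.17, 95% interval 0.21 to 1.0), or 1.52-fold, with an unadjusted p of 0.00845 and an adjusted p of 0.107 in limma, and 1.27% of tested probes had a greater positive difference. Slc2a1 was called with no background correction (adjusted p 0.00725), with the other normexp setting (0.0356) and with either trended prior (0.0276 with the robust option and 0.00153 without), over a range of 0.00153 to 0.238. Without hSRY-ON array 1 the difference was 0.43, and without array 3 it was 0.76 (adjusted p 0.0507).

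Slc2a1 is densest in endothelium, so the endothelial markers were read beside it. Of their 10 tested probes, 3 had positive and 7 negative differences, with a median of -0.25. Their summed normalized intensity, on the linear scale, ran from 8246 to 8733 in hSRY-OFF and from 7693 to 8793 in hSRY-ON, and Erg and Slco1a4 were detected on no array. Vwf, a clotting factor of endothelium, was the 1 called probe (1.75 higher, adjusted p 0.0240). Among the probes not called, the surface antigen Ly6c1 had a difference of 0.64 (adjusted p 0.0513). The angiopoietin receptor Tek differed by -0.53 (adjusted p 0.0861) and the related receptor gene Tie1 by -0.63, all 3 without overlap. In all, 2 of the 10 probes, Vwf and Ly6c1, were higher in hSRY-ON without overlap and 5 were lower. The same 2 and 5 had an unadjusted p under 0.05 in limma. With no background correction or either trended prior, 2 were called higher and 3 lower. The 7 pericyte probes had a median of -0.10 and a lower summed intensity in hSRY-ON (2725 to 3158) than in hSRY-OFF (3841 to 3976), and Vtn was called lower (-0.59, adjusted p 0.0386). Vtn, the brightest probe, carried most of that sum: the other 6 probes, with differences of -0.31 to 0.18, summed to 1121 to 1149 in hSRY-OFF and 1045 to 1078 in hSRY-ON. Without the brightest endothelial probe, Cldn5, the other 9 summed to 4226 to 4312 in hSRY-OFF and 4777 to 5320 in hSRY-ON, Vwf and Ly6c1 among them. In whole brain, fewer cells of a type and less RNA per cell cannot be told apart, and the part of either cell type in the Slc2a1 and Vegfa values was not tested.

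The groups overlapped for Ldha, Pgk1 and Pfkfb3, the tested members that encode glycolytic enzymes. Ldha, the lactate dehydrogenase subunit that favours lactate formation, was among the brightest probes and read 13.82, 13.78 and 13.89 in hSRY-OFF and 14.01, 13.78 and 13.93 in hSRY-ON. Array 2 was the lowest in each group. The difference was 0.08 (SE 0.09, 95% interval -0.13 to 0.29, adjusted p 0.659), with an upper limit of 1.22-fold. The difference was 0.16 under median scaling, between 0.03 and 0.14 when 1 array was left out, and 0.07 when that was hSRY-ON array 3. Pgk1, the first ATP-forming enzyme of the pathway, read 7.32, 7.27 and 7.52 in hSRY-OFF and 7.60, 7.31 and 7.64 in hSRY-ON. These overlapped as well, with a difference of 0.14 (SE 0.12, 95% interval -0.14 to 0.43, adjusted p 0.532), and 0.08 without hSRY-ON array 3. Pfkfb3 makes and removes fructose 2,6-bisphosphate, the activator of phosphofructokinase. It was above background on 2 hSRY-OFF arrays and 1 hSRY-ON array and was the 1 member with a negative difference, -0.28 (SE 0.20, 95% interval -0.76 to 0.19, adjusted p 0.472), and -0.30 without hSRY-ON array 3. Its values of 5.24, 5.87 and 5.87 in hSRY-OFF and 5.13, 5.60 and 5.41 in hSRY-ON overlapped.

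Pdk1, the kinase that switches off pyruvate dehydrogenase and so keeps pyruvate out of the mitochondrial cycle, read 8.12, 7.97 and 7.81 in hSRY-OFF and 8.33, 8.43 and 8.25 in hSRY-ON. After normalization all hSRY-ON arrays were higher, with array 2 highest, and here their spread was no wider than that of hSRY-OFF. In the deposited intensities the groups overlapped, with 471, 395 and 363 in hSRY-OFF and 478, 478 and 440 in hSRY-ON. The means were 7.96 ± 0.15 and 8.34 ± 0.09 (SD, n = 3), and the difference was 0.37 (SE 0.10, 95% interval 0.13 to 0.62), or 1.30-fold. Its unadjusted p was 0.00883 and its adjusted p 0.109 in limma. A greater positive difference was seen in 5.81% of tested probes. Pdk1 was called only with no background correction (adjusted p 0.0439, difference 0.24), among alternatives that ranged up to 0.244, and its difference was 0.42 without hSRY-ON array 3 (adjusted p 0.107).

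Bnip3, a mitochondrial protein that promotes the removal of mitochondria, gave bead intensities of 164, 165 and 162 in hSRY-OFF and 164, 149 and 142 in hSRY-ON, none above background. Egln3, the prolyl hydroxylase that HIF itself induces, was detected by ILMN_2605819 on all arrays. It read 6.48, 5.78 and 6.50 in hSRY-OFF and 6.71, 6.07 and 6.07 in hSRY-ON. The groups overlapped, and the difference of 0.03 (SE 0.25, 95% interval -0.56 to 0.61, adjusted p 0.968) turned negative without hSRY-OFF array 2 or hSRY-ON array 1 and was 0.13 without hSRY-ON array 3. The second Egln3 probe was detected on no array. The plot of differences sets the members side by side: the intervals of the 4 separated probes lay above 0 and those of the other 5 included it.

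**Figure D2:**
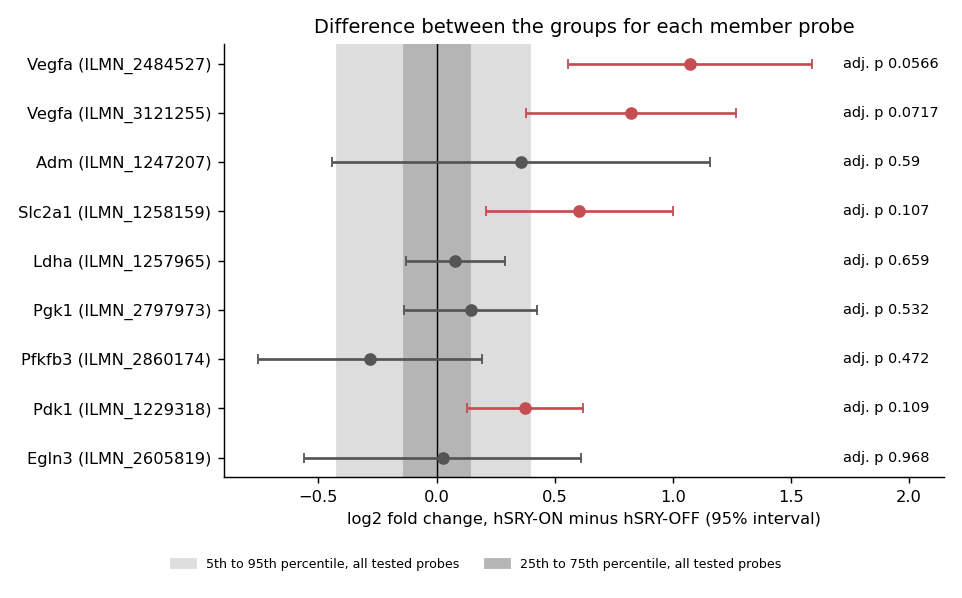
Difference in log2 intensity between hSRY-ON and hSRY-OFF (horizontal axis) for each tested member probe, with its 95% interval and the limma adjusted p at the right. Red marks the 4 probes whose groups did not overlap, and the grey bands give the spread of all 14215 tested probes. The Vegfa and Slc2a1 points lie beyond the 95th percentile of all probes, while Ldha and Egln3 lie between the quartiles of all probes (-0.14 and 0.14) and Pgk1, at 0.145, just above the upper one.

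The wider hypoxia pathway was read from lists of its other genes, of which 1 probe was called. In the list of HIF subunits and oxygen sensors, 7 of 11 tested probes had positive and 4 negative differences, 0 were called (2 at an unadjusted p under 0.05, 1 each way), and the median was 0.15. Without single arrays this median was between 0.03 (without hSRY-ON array 2) and 0.15. With no background correction it was 0.04, and with the stricter detection filter it was -0.007, with 4 probes on each side. Hif1a, the main oxygen-labile subunit, read 9.32 ± 0.17 in hSRY-OFF and 9.19 ± 0.17 in hSRY-ON (SD, n = 3), a difference of -0.13 (adjusted p 0.600). Its partner Arnt differed by -0.31 (adjusted p 0.147) and the neural partner Arnt2 by 0.50 (adjusted p 0.120), both without overlap of the groups, and by -0.10 and 0.15 with no background correction. Hif3a, which can act as an inhibitor, differed by 0.34 with overlap (adjusted p 0.372). Hif1an was detected on no array. The activity of HIF is set at its protein, which arrays do not read.

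Of 21 tested probes of other HIF target genes, for 16 symbols, 15 had positive and 6 negative differences. Their median was 0.24 (0.12 with no filter on dim probes). Of the 21, 8 had an unadjusted p under 0.05 with a higher mean in hSRY-ON, as did 10.1% of all tested probes, and 1 with a lower mean. The Kdm3a probes, described below, were all among the 8 and read the same gene. Lox, which cross-links collagen, was the called probe. It read 7.61, 7.72 and 7.56 in hSRY-OFF and 8.16, 8.31 and 8.29 in hSRY-ON, 2 tight groups apart by 0.62 (SE 0.09, adjusted p 0.0294 in limma). Its call was lost in every fit without 1 array except the one without hSRY-ON array 3, with adjusted p between 0.0732 and 0.109 in the other 5. Leaving hSRY-ON array 3 out took the list from 1 to 2 calls, with 2.98% of all probes called in that fit. With no background correction 7 of its probes were called higher and 1 lower, where 9.26% of all tested probes were called in either direction. The counts were 8 higher and 1 lower with either trended prior (10.2% of all probes with the robust option and 10.1% without), 3 higher with the other normexp setting (6.05%) and 2 higher with the stricter detection filter (6.07%).

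Kdm3a, a histone demethylase listed under its older symbol Jmjd1a, had 3 probes, and all 3 separated the groups. Its differences were 0.68, 0.55 and 0.52, with adjusted p of 0.0861, 0.168 and 0.172, and hSRY-ON array 1 was the highest array in each. The first of these probes was called in 6 of the 17 alternatives. Ankrd37 differed by 0.87 (SE 0.27, adjusted p 0.134), with values of 6.78, 6.74 and 7.30 in hSRY-OFF and 8.38, 7.67 and 7.37 in hSRY-ON. The lowest hSRY-ON array was just above the highest hSRY-OFF array, and hSRY-ON array 1 was again the highest. Ankrd37 was called in 3 alternatives, with no background correction and with either trended prior. In the other direction, the adenylate kinase Ak4 (listed as Ak3l1) differed by -0.47 without overlap (adjusted p 0.124) and was called lower in 3 alternatives. The heme-degrading enzyme Hmox1 differed by -0.20 (adjusted p 0.753), which turned to 0.0794 without hSRY-ON array 1. Car9, Epo, Ero1l and Higd1a were detected on no array.

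**Figure D3:**
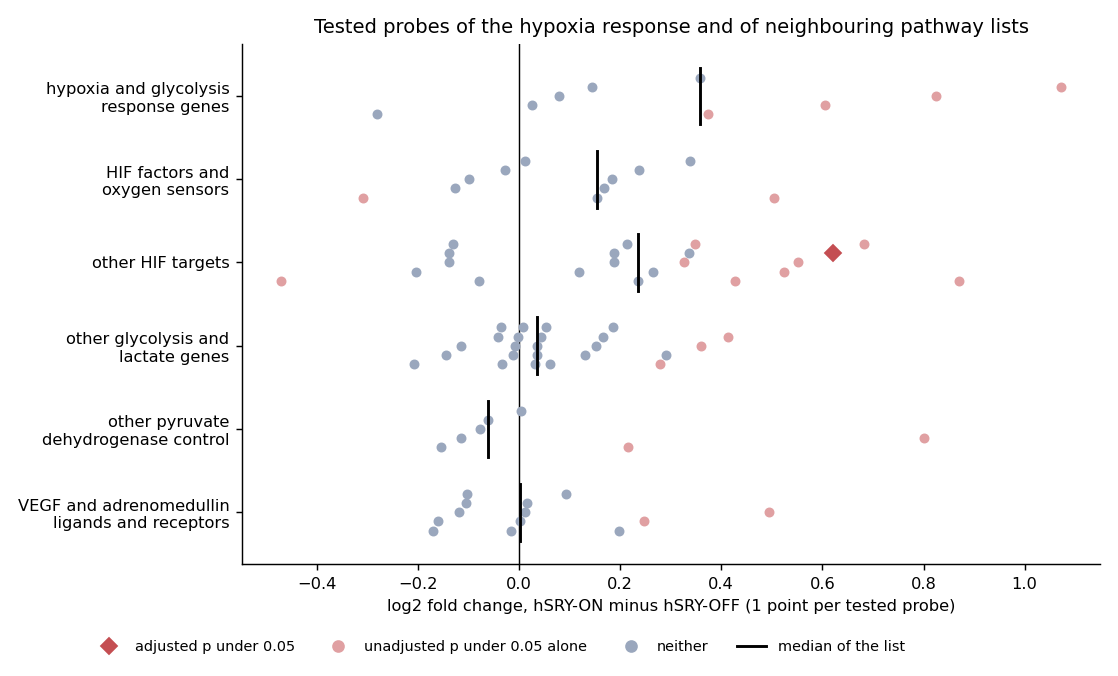
Difference in log2 intensity between hSRY-ON and hSRY-OFF (horizontal axis) for each tested probe of the member genes and of 5 further lists, with black bars for list medians. Of all these probes only Lox (diamond) passed the adjusted threshold. The medians were 0.36 for the members and 0.24 for the other HIF targets, against 0.04 for the other glycolysis and lactate genes. With no background correction the first 2 were 0.10 and 0.19, in the opposite order.

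For glycolysis and lactate transport, 24 further probes were tested. Of them 15 had positive and 9 negative differences, their median was 0.04, and 0 were called in limma (3 at an unadjusted p under 0.05, all higher in hSRY-ON). The split was 19 to 5 with a median of 0.08 under median scaling, 11 to 13 with a median of -0.01 without hSRY-OFF array 1 and 12 to 11 with a median of 0.002 without hSRY-ON array 1. With either trended prior, 3 of the 24 probes were called, where 10.2% (robust) and 10.1% of all tested probes were. The aldolase Aldoc differed by 0.28 (adjusted p 0.105) and the pyruvate kinase Pkm2 by 0.17 (adjusted p 0.280), both without overlap, and Gapdh read 14.09 ± 0.08 and 14.08 ± 0.04 (SD, n = 3). Pfkfb2, a relative of Pfkfb3, had a difference of 0.41 (adjusted p 0.0916) by 1 probe and 0.04 (adjusted p 0.903) by its other, dimmer probe. The lactate exporter Slc16a3 differed by 0.36 (adjusted p 0.224) with overlap. Its probe was dim, above background on 1 hSRY-OFF and 2 hSRY-ON arrays, and the difference was as low as 0.10 among the alternatives. At the other end, Eno2, the enolase of neurons, differed by -0.14 without overlap (adjusted p 0.323) and the phosphofructokinase Pfkp by -0.21 (adjusted p 0.391) by 1 probe, with -0.04 and 0.13 by its others. Pfkfb1, Slc16a1 and Slc16a7 were detected on no array.

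Around Pdk1, 7 other probes of pyruvate dehydrogenase control were tested, of which 3 had positive and 4 negative differences, the median was -0.06 and 0 were called (2 at an unadjusted p under 0.05, both higher in hSRY-ON). Pdk4, the family member known for its induction by fasting and glucocorticoids, read 6.91, 6.82 and 6.95 in hSRY-OFF and 8.16, 7.61 and 7.31 in hSRY-ON. Every hSRY-ON array was higher and array 1 the most, for a difference of 0.80 (SE 0.20, adjusted p 0.0866), and Pdk4 was called in 6 of the 17 alternatives. Pdk2 and Pdk3 differed by -0.11 (adjusted p 0.589) and -0.15 (adjusted p 0.424), with overlap. The opposing phosphatase Pdp1, listed as Ppm2c, differed by 0.22 (adjusted p 0.217) without overlap. Pdhx was detected on no array.

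Among other ligands and receptors of the Vegfa and adrenomedullin systems, 7 of 13 tested probes had positive and 6 negative differences, with a median of 0.002 and 0 calls (2 at an unadjusted p under 0.05, both higher in hSRY-ON). Flt1, a high-affinity receptor of Vegfa that HIF also induces, read 8.49, 8.06 and 8.40 in hSRY-OFF and 9.05, 8.71 and 8.67 in hSRY-ON. The groups did not overlap, and the difference was 0.49 (SE 0.15, adjusted p 0.131). The co-receptor Nrp1 differed by 0.25 (adjusted p 0.186) and 0.20 (adjusted p 0.376) by its 2 probes, and Vegfb by -0.17 (adjusted p 0.351). Nrp2 differed by -0.16 (adjusted p 0.426) by a dim probe, above background on 2 hSRY-OFF arrays and 1 hSRY-ON array. Another Nrp2 probe, not tested, was above background on 2 hSRY-ON arrays alone, with means of 5.15 in hSRY-OFF and 5.67 in hSRY-ON. The main signalling receptor Kdr, the adrenomedullin receptor Calcrl and the ligand Adm2 were detected on no array.

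Lists of several other gene groups held called probes and were read beside the members, with no test of a list as a whole. Of 17 tested probes of glucocorticoid-induced genes, all 17 had positive differences and 5 were called higher, with a median of 0.30, and their summed intensity was 29863 to 31155 in hSRY-OFF and 40631 to 48789 in hSRY-ON (16346 to 17226 and 18367 to 23561 without Mt1, the brightest probe). The called probes were Fam107a (2.03, adjusted p 0.0263), Sult1a1 (1.73, adjusted p 0.00540), the metallothioneins Mt2 (0.83, adjusted p 0.0263) and Mt1 (0.75, adjusted p 0.0243) and the receptor chaperone Fkbp5 (0.77, adjusted p 0.0325). All 11 tested probes of dividing cells, for 7 symbols, had negative differences and 7 were called lower, with a median of -0.91. Several of these calls were for Cdc20. Bub1 and Ccnb2 were detected on no array. Of 14 oligodendrocyte probes, for 8 symbols, 13 had negative differences and 3, for Mobp and Ugt8a, were called lower, with a median of -0.57. Over all 14215 tested probes, 120 were called higher and 188 lower. None of the calls in the lists of other cell types or of glucocorticoid-induced genes held without any 1 of hSRY-OFF arrays 1, 2 and 3 and hSRY-ON arrays 1 and 2, except that Sult1a1 stayed called without hSRY-OFF array 2 or hSRY-ON array 1. Without hSRY-ON array 3, 5 glucocorticoid-induced, 7 dividing cell and 2 oligodendrocyte probes were called. Their part in the values of the members was not tested.

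Among the cells that make Vegfa in brain are astrocytes. Of 11 astrocyte probes, 5 had positive and 6 negative differences, with a median of -0.04, and the water channel Aqp4 (-0.81, adjusted p 0.0275) and the filament gene Gfap (-0.83, adjusted p 0.0308) were called lower. Their summed intensity was 37088 to 37492 in hSRY-OFF and 34117 to 39415 in hSRY-ON (16659 to 17217 and 14768 to 16066 without Slc1a3, the brightest probe), and Glul and S100b were detected on no array. The 6 erythroid probes, a reading of blood left in the tissue, had 3 differences in each direction, a median of 0.02 and 0 calls (0 at an unadjusted p under 0.05), with summed intensities of 33004 to 37524 and 29806 to 36913, and Epb4.2 and Hbb-bh1 were detected on no array. Of 6 neuron probes, 2 had positive and 4 negative differences, with a median of -0.03, and the growth cone gene Gap43 was called higher (0.45, adjusted p 0.0479), a call that was lost without any single array. Nefl and Snap25 were detected on no array.

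The plot of settings shows how far the members depended on processing. The differences of both Vegfa probes, Slc2a1 and Pdk1 were positive in all 17 alternatives. Of the 9 tested member probes, 4 were called with no background correction, where 9.26% of all tested probes were. The other normexp setting called 3 members (6.05% of all probes), a trended prior 3 with the robust option (10.2%) and 3 without (10.1%), array quality weights 2 (3.38%) and the stricter detection filter 2 of the 6 that passed it (6.07%). With a threshold of 0.10 on the adjusted p, 2 were called, both of them Vegfa, where 7.03% of all tested probes were. Leaving out single arrays left at most 1 member called.

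**Figure D4:**
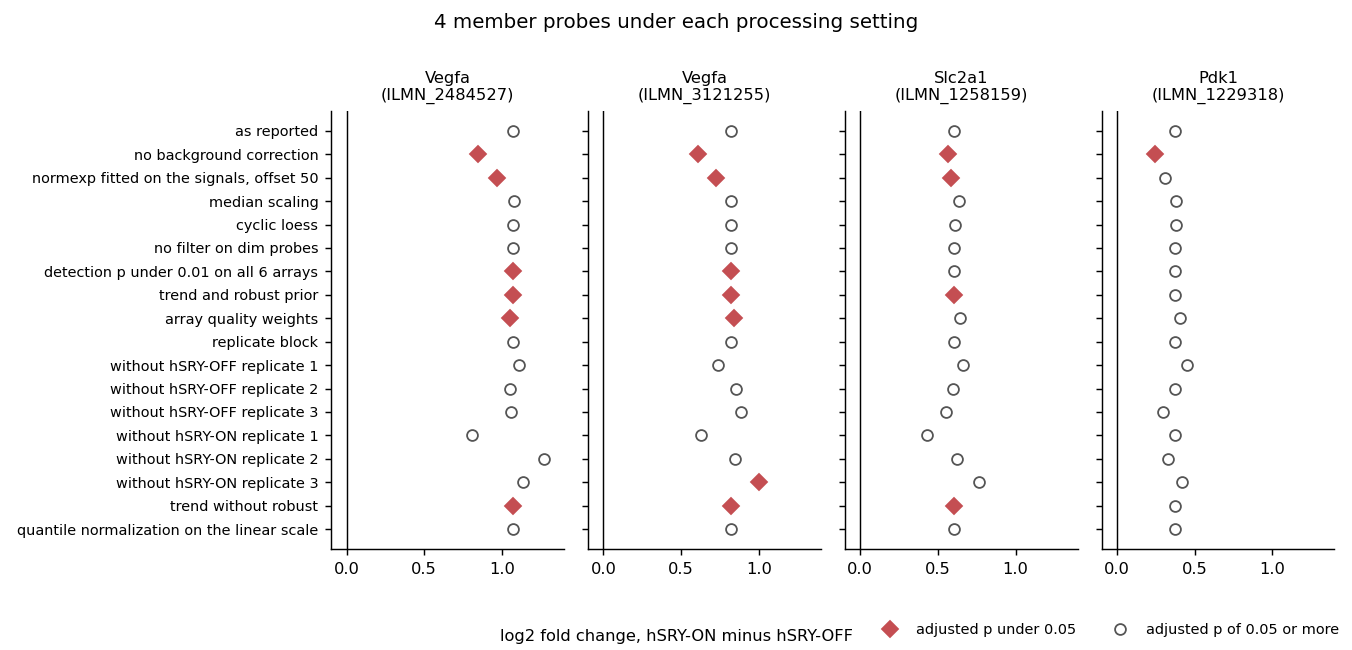
Difference in log2 intensity between hSRY-ON and hSRY-OFF (horizontal axis) for both detected Vegfa probes, Slc2a1 and Pdk1 under each processing setting (rows). Red diamonds have an adjusted p under 0.05 and open circles do not. All points lie above 0. Among the fits that leave out 1 array, both Vegfa probes and Slc2a1 have their smallest difference without hSRY-ON array 1, at 0.81, 0.63 and 0.43.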

How the data were processed

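Whole-brain RNA of 3 hSRY-OFF and 3 hSRY-ON mice was hybridized to Illumina MouseRef-8 v2.0 arrays. The authors deposited a mean bead signal intensity per probe and array on a linear scale, not normalized between arrays. Beside each the authors deposited a detection p-value, the share of negative controls (798 per array, from its steps) at least as bright. For normalization the methods give TCC, an R package, without settings, and the submitters' processing notes name limma; TCC was not used here. Depth does not apply to arrays, and their number limits the precision.

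In R 4.3.3 with limma 3.58.1, intensities were corrected with normexp on controls inferred from the detection p-values (offset 16), put on the log2 scale and quantile normalized. Subtracting background makes dim probes vary more. The 14215 probes (10548 symbols) detected on 3 or more of the 6 arrays, at a detection p-value under 0.05, were fitted with lmFit and eBayes, with group as the only term, two-sided, and Benjamini-Hochberg adjustment over all of them. Every adjusted p is from this fit unless another is named. Pairs of probes of 1 symbol were compared by fitting their difference per array. P-values measure the spread between these mice. The steps were tested on simulated data with known changes.

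Samples were grouped by the genotype in their labels. The member genes and lists were chosen with earlier results of these data known. Every member probe is described. From pathway lists, called probes and the 2 largest differences each way are named, and from other lists called probes and at most 3 others, with further probes named after their values were seen. Promoter sequences were RefSeq's. Alternatives were other background corrections, normalizations, filters, priors, weights and thresholds, a replicate block and leaving out each array. Figures used matplotlib 3.10.9 in Python 3.11.15.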

Additional observations from a re-analysis of the deposited data

How the results depend on the processing

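Over all tested probes, the 308 calls became 1317 with no background correction, 860 with normexp fitted on the signals and an offset of 50, 123 with no filter on dim probes, 705 when all 6 arrays had to reach a detection p-value under 0.01, 1447 with a trended and robust prior, 480 with array quality weights and 1434 with a trended prior alone, the last chosen after the data were seen. They ranged from 0 to 417 when 1 array was left out. The 0 member calls became 4 with no background correction, 3 with normexp fitted on the signals, 2 with the stricter detection filter, 3 with a trended and robust prior, 2 with array weights, 2 at an adjusted p under 0.10 and 3 with a trended prior alone, and ranged from 0 to 1 without single arrays. The median difference of the members, 0.36, was 0.10 with no background correction and 0.16 with no filter (12 probes), and 0.24 to 0.47 without single arrays. The 1 call among probe pairs became 50 with no background correction and 0 to 0 without single arrays. Without single arrays, the difference of Egln3 (0.03) ranged from -0.21 to 0.15, negative without hSRY-OFF array 2 (-0.21) or hSRY-ON array 1 (-0.18), and that of Hmox1 (-0.20) from -0.53 to 0.0794, positive without hSRY-ON array 1. The causes were not tested. With 3 arrays per group, the standard errors of the tested members ran from 0.09 (Ldha) to 0.34 (Adm), and a difference that missed the threshold is not shown to be absent.

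Arrays with the same replicate number were not stated to share a litter or day, and the correlations of their deviations from the group means, 0.040, 0.029 and 0.025, did not show a pairing, although each array correlated best with its own number, a hint from the data alone. With a replicate block, 0 probes were called over all probes (2906 at an unadjusted p under 0.05), 0 members and 0 probe pairs.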
